A study of Homo sapiens with 2 samples.

Results

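The genes described here encode the cytosolic translation initiation factors (eIFs) and elongation factors (eEFs). They were picked by gene name: the name had to begin with EIF and a digit from 1 to 6, or with EEF1 or EEF2, and names ending in P and digits, the usual form of a pseudogene name, were left out. The rule took 62 of the 18781 genes in the table, 53 with EIF names and 9 with EEF names. It left out 44 genes, and 3 of those were EIF4EBP genes, which encode inhibitors of eIF4E and were read as part of the surrounding pathway. The rule also took a few genes that are not initiation factors, among them the antisense RNA EIF3J-AS1, the exon junction helicase EIF4A3 and the readthrough gene EEF1E1-BLOC1S5.

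RNA was collected by RNA immunoprecipitation from wild-type T47D cells, an established luminal breast cancer line that carries the oestrogen receptor. Lysate was incubated with protein A beads that carried an antibody to IMP1 (IGF2BP1), a cytoplasmic RNA-binding protein with KH domains, or with beads that carried normal IgG, and the RNA on the beads was sequenced. Each condition had 1 library, so no difference given here has a replicate check and no test was run. All levels are FPKM, fragments per length of transcript and per number of mapped fragments, a unit that allows levels to be compared between genes of different length. All differences are log2 ratios of (FPKM + 0.1), the IMP1 library over the IgG library.

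Initiation begins when eIF2 delivers the initiator tRNA to the small ribosomal subunit, which carries eIF1, eIF1A, eIF3 and eIF5. The eIF4F complex binds the cap of the mRNA through eIF4E, unwinds the leader through eIF4A and holds both on the scaffold eIF4G, and eIF5B then joins the large subunit. Elongation is carried by eEF1A, which brings aminoacyl-tRNA, by the eEF1B subunits, which recharge eEF1A with GTP, and by eEF2, which moves the ribosome along. The mRNAs of several elongation factors, like those of ribosomal proteins, are counted in the TOP class. Such mRNAs start with a C and a run of pyrimidines (the terminal oligopyrimidine), and their translation follows mTORC1 signalling. The set called TOP-type here, EEF1A1, EEF1B2, EEF1D, EEF1G and EEF2, was a fixed list and was not drawn up from annotated starts.

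The starts of these mRNAs are printed because the TOP class is defined by them. The sequences are from a set of RefSeq promoters (GRCh38.p14), in which 52 of the 62 genes were matched by name. Each line gives 10 bases before and 20 bases from the annotated first base of exon 1, on the strand of the gene, and the capitals mark the unbroken run of C and T that opens the transcript, shown only where the first base is C and the next 4 bases are each C or T.
EEF1A1, chr6:73521013-73521042, minus strand: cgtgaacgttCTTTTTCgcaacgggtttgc
EEF2, chr19:3985444-3985473, minus strand: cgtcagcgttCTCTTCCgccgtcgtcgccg
EEF1B2, chr2:206159885-206159914, plus strand: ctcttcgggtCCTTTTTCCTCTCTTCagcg
EEF1G, chr11:62573872-62573901, minus strand: cgggcggcttactttgcggcagcgccgaga
EIF4B, chr12:53006446-53006475, plus strand: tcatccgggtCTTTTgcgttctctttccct
EIF3F, chr11:7987327-7987356, plus strand: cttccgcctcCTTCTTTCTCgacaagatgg
EIF4A2, chr3:186783567-186783596, plus strand: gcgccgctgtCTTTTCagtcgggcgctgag
EIF2A, chr3:150546777-150546806, plus strand: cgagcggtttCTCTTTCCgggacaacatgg

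Such a start was annotated for 13 of the 52 genes (25.0%), counting a gene if any of its annotated starts had it. It was annotated for 855 of 12182 matched genes of the whole table (7.02%) and for 46 of 62 matched cytosolic ribosomal protein genes (74.2%). EEF1A1, EEF2 and EEF1B2 had it, and EEF1B2 also had a second annotated start without it. The annotated start of EEF1G did not have these letters at its first base, and the promoter set used had no matched start for EEF1D. Of the factor genes with such a start, only EEF1A1, EEF2 and EEF1B2 are in the TOP-type set. Besides the 7 genes marked above, the start was annotated for EIF2D, EIF2S3, its copy EIF2S3L, EIF3D, EIF3K and EIF3M. A match describes the annotated letters only, since the first base used in T47D cells was not measured.

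Most of these mRNAs were present in both libraries. At least 1 FPKM was reached by 57 of the 62 genes with the IMP1 antibody and by 52 with IgG, and these 52 reached it in both. None was listed at 0 with the IMP1 antibody, whereas 6 had a 0 with IgG. The 62 genes summed to 3359 FPKM with the IMP1 antibody and 2847 FPKM with IgG.

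The libraries differed in composition as a whole, which bears on every direction given here. The FPKM of all genes summed to 353885 with the IMP1 antibody and 1298363 with IgG, or 182564 and 521180 without the mitochondrially encoded genes. Luminal breast markers were higher in the IMP1 library for 10 of 10 genes, against 56.5% of all genes, with sums of 1182 and 492 FPKM. At least 2-fold higher were 7 of them, against 39.9% of all genes, while ESR1 (log2 ratio 0.09) and FOXA1 (0.20) hardly differed. Mesenchymal markers were lower for 10 of 10 genes, with sums of 2.64 and 234 FPKM, and DCN, LUM, SPARC, COL1A2 and ZEB2 were listed at 0 in the IMP1 library. All 10 were at least 2-fold lower, against 29.9% of all genes. Of 8 blood cell markers, CD74 (6.42 FPKM and 305 FPKM with IgG) and CD14 (0.103 FPKM and listed at 0 with IgG) were in the table. The part of these differences in the values of the translation factors was not tested.

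Scaling the IMP1 library so that the median gene at 1 FPKM or more in each library has a ratio of 1 adds 0.79 to a log2 ratio, scaling to the same sum without mitochondrially encoded genes adds 1.51, and scaling to the same sum adds 1.88, for genes well above the added 0.1. The directions below are for FPKM as deposited. A ratio between 2 members within 1 library does not depend on the scaling.

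Of the 52 factor genes at 1 FPKM or more in each library, 7 were at least 2-fold higher with the IMP1 antibody, against 11.5% of the 6909 genes of the table at that level. In the other direction, 18 were at least 2-fold lower, against 44% of those genes. The median log2 ratio of the 52 was -0.24 and that of the 6909 genes was -0.78, so the factor mRNAs lay 0.54 above the median gene. A ratio above 0 was found for 24 of the 52, against 30.2%. At 10 FPKM or more in each library, 34 factor genes remained, of which 6 were at least 2-fold higher against 9.58% of 1628 genes, 11 at least 2-fold lower against 31.6%, and 15 above 0 against 33.4%. Over all 62 genes, 12 were at least 2-fold higher and 18 at least 2-fold lower, against 39.9% and 29.9% of all 18781 genes, and 34 were above 0 against 56.5%, with a median of 0.24 against 0.40. The background over all genes is shaped by the 7270 genes listed at 0 in the IgG library, compared with 1202 in the IMP1 library.

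The factor genes made up 1.84% of the FPKM sum without mitochondrially encoded genes with the IMP1 antibody and 0.546% with IgG. The 5 TOP-type elongation factor mRNAs, EEF1A1, EEF1B2, EEF1D, EEF1G and EEF2, made up 1.08% and 0.149%. The other 57 made up 0.761% and 0.397%.

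**Figure D1:**
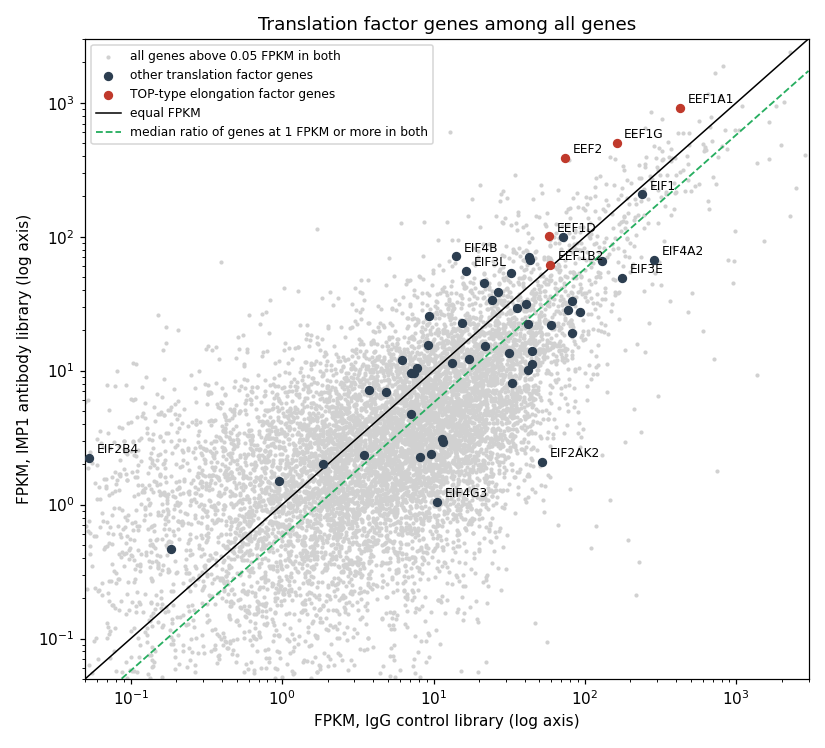
Each point is 1 gene with over 0.05 FPKM in both libraries, with its FPKM in the IgG library on the x axis and in the IMP1 library on the y axis (both log axes), and the translation factor genes are drawn over all other genes. EEF1A1, EEF1G and EEF2 lie above the bulk of genes at the upper right, while EIF2AK2 and EIF4G3 lie below it.

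The TOP-type elongation factors are taken first. EEF1A1, the carrier of aminoacyl-tRNA (hg19 locus chr6:74225473-74280319), was at 918 FPKM with the IMP1 antibody and 423 FPKM with IgG, a 2.17-fold difference (log2 ratio 1.12). It ranked 27 of 18781 genes with the IMP1 antibody and 89 with IgG, the highest factor gene of both libraries.

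EEF2, the translocase (hg19 chr19:3976054-3985467), was at 388 FPKM with the IMP1 antibody and 74.0 FPKM with IgG, a 5.24-fold difference (log2 ratio 2.39). This was the largest ratio among the factor genes at 1 FPKM or more in each library. It moved EEF2 from rank 444 with IgG to rank 67 with the IMP1 antibody.

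EEF1G, the gamma subunit of eEF1B that anchors the exchange complex (hg19 locus chr11:62327073-62359649), was at 502 FPKM and 162 FPKM, a 3.10-fold difference (log2 ratio 1.63). EEF1D, the delta exchange subunit, was at 101 FPKM and 58.2 FPKM (log2 ratio 0.79). EEF1B2, the alpha exchange subunit, was at 61.5 FPKM and 58.5 FPKM (log2 ratio 0.07), the smallest difference of the 5.

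All 5 ratios were above 0 as deposited, and 3 of the 5 were at least 2-fold higher with the IMP1 antibody. Of the 6909 genes at 1 FPKM or more in each library, 30.2% were above 0 and 11.5% at least 2-fold higher. Each of the 3 scalings adds to a log2 ratio, so none could turn these 5 below 0. The median log2 ratio of the 5 was 1.12, compared with -0.49 for the other 47 factor genes at 1 FPKM or more in each library. The subunits of eEF1B did not share 1 ratio: EEF1G stood at 8.16 times EEF1B2 with the IMP1 antibody and 2.76 times with IgG, and EEF1D at 1.64 and 0.995 times.

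The remaining genes with EEF names lay on both sides of 0. EEF1A2, the paralogue of EEF1A1 that muscle and neurons use, was at 29.5 FPKM with the IMP1 antibody and 35.7 FPKM with IgG (log2 ratio -0.27, above 0 under each of the 3 scalings). EEF1E1, a small protein of the multi-synthetase complex, was at 10.2 FPKM and 42.2 FPKM (log2 ratio -2.04, below 0 under all scalings). EEF2K, the kinase that inactivates eEF2, was at 1.14 FPKM with the IMP1 antibody and listed at 0 with IgG, as were 40.6% of the 2836 genes within 1.5-fold of that IMP1 level.

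**Figure D2:**
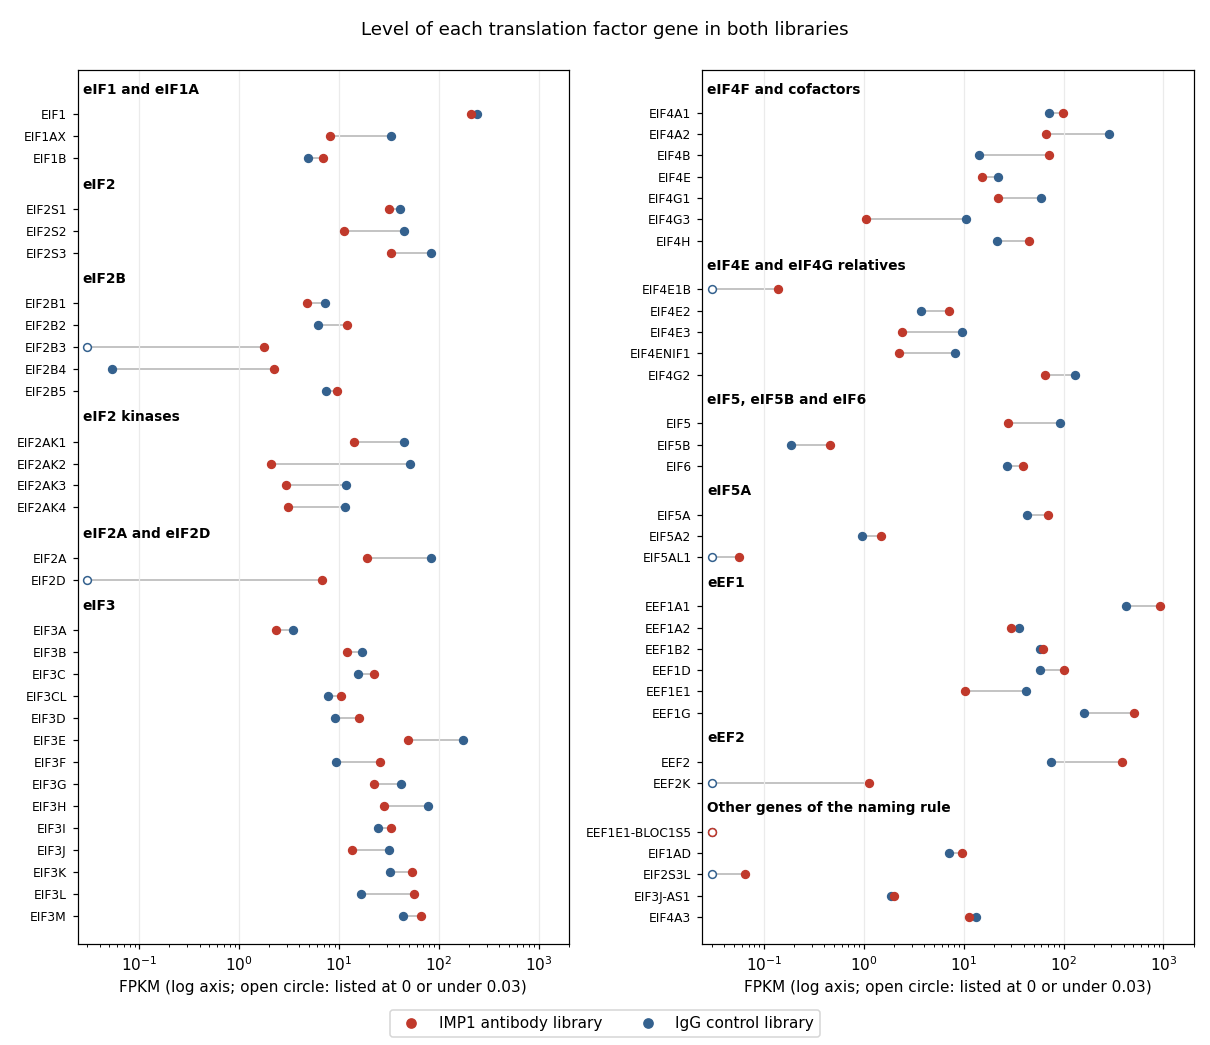
FPKM (log axis) of each factor gene in both libraries, grouped by complex, with an open circle for a gene listed at 0 or under 0.03 FPKM. EEF1A1 is the highest factor gene of both libraries, at 918 FPKM with the IMP1 antibody and 423 FPKM with IgG, and the eIF2 kinases lie below their IgG level.

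The initiation factors are described by complex. The 53 genes with EIF names had a median log2 ratio of 0.10, with 8 at least 2-fold higher and 17 at least 2-fold lower. The 9 genes with EEF names had a median of 0.79, with 4 higher and 1 lower. Over all 18781 genes, 39.9% were at least 2-fold higher and 29.9% lower.

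The 3 subunits of eIF2, the carrier of initiator tRNA, were below 0. So were 4822 of the 6909 genes at 1 FPKM or more in each library. EIF2S2 (beta) was at 11.1 FPKM with the IMP1 antibody and 44.8 FPKM with IgG (log2 ratio -2.00). EIF2S3 (gamma) was at 33.0 FPKM and 82.3 FPKM (log2 ratio -1.32), and EIF2S1 (alpha) was at 31.4 FPKM and 40.5 FPKM (log2 ratio -0.36). Scaling to the same sum left EIF2S2 below 0, at -0.13, and turned EIF2S3 to 0.55 and EIF2S1 to 1.51. Within a library, EIF2S1 stood at 2.82 times EIF2S2 with the IMP1 antibody and 0.905 times with IgG.

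The kinases that phosphorylate eIF2 alpha under stress were lower with the IMP1 antibody in 4 of 4 cases, each at least 2-fold, a difference that 44% of genes at 1 FPKM or more in each library also had, with a median log2 ratio of -1.89. EIF2AK2 (PKR, activated by double-stranded RNA) was at 2.09 FPKM with the IMP1 antibody and 51.8 FPKM with IgG, 24.8-fold lower (log2 ratio -4.57), the smallest ratio of the whole set. EIF2AK2 is an interferon-induced gene, and 10 of 10 other interferon-induced genes were lower too, with log2 ratios from -7.59 to -3.15 and sums of 147 FPKM and 2357 FPKM. Each of the 10 was at least 2-fold lower, against 29.9% of all 18781 genes. IFI44L was listed at 0 in the IMP1 library. The part of this difference in the EIF2AK2 value was not tested.

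The other kinases are not part of that list. EIF2AK1 (HRI, the haem-regulated kinase) was at 14.1 FPKM and 44.7 FPKM (log2 ratio -1.66). EIF2AK3 (PERK, of the endoplasmic reticulum) was at 2.95 FPKM and 11.6 FPKM (log2 ratio -1.94). EIF2AK4 (GCN2, the sensor of uncharged tRNA) was at 3.08 FPKM and 11.3 FPKM (log2 ratio -1.85). Under scaling to the same sum EIF2AK2 remained far below 0, at -2.74, while EIF2AK3 and EIF2AK4 came to lie near 0 and EIF2AK1 turned to 0.21.

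Of the subunits of eIF2B, the exchange factor that recharges eIF2 with GTP, 4 of 5 lay above 0, against 56.5% of all 18781 genes. The median log2 ratio of the 5 was 0.95. Over the 3 at 1 FPKM or more in each library, EIF2B1, EIF2B2 and EIF2B5, the median was 0.37, and EIF2B1 lay below 0. EIF2B2 was at 12.1 FPKM with the IMP1 antibody and 6.21 FPKM with IgG (log2 ratio 0.95). EIF2B4 was at 2.24 FPKM and 0.0529 FPKM, so that its IgG value is below the added 0.1. EIF2B3 was at 1.76 FPKM and listed at 0 with IgG, as were 32.8% of the 3051 genes within 1.5-fold of its IMP1 level. EIF2B5, whose locus entry is shared with 17 other genes, EIF4G1 among them, was at 9.60 FPKM and 7.39 FPKM. EIF2B1 was at 4.72 FPKM and 7.15 FPKM (log2 ratio -0.59, above 0 under each scaling). The 5 IMP1 values summed to 30.4 FPKM against 20.8 FPKM with IgG.

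EIF2A and EIF2D, which can deliver initiator tRNA without eIF2, differed in direction. EIF2A was at 19.2 FPKM with the IMP1 antibody and 82.6 FPKM with IgG (log2 ratio -2.10, below 0 under all scalings). EIF2D was at 6.79 FPKM with the IMP1 antibody and listed at 0 with IgG. Of the 2101 genes within 1.5-fold of its IMP1 level, 14.2% were listed at 0 with IgG. Both genes are among those with the C and pyrimidine start.

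eIF3, the largest initiation factor, had 14 genes at 1 FPKM or more in each library, with log2 ratios from -1.84 to 1.76 and a median of 0.44. At least 2-fold higher were EIF3L, at 55.9 FPKM with the IMP1 antibody and 16.4 FPKM with IgG (log2 ratio 1.76), and EIF3F, at 25.8 FPKM and 9.40 FPKM (log2 ratio 1.44). At least 2-fold lower were EIF3E, at 49.2 FPKM and 176 FPKM (log2 ratio -1.84), EIF3H, at 28.3 FPKM and 76.9 FPKM (log2 ratio -1.44), and EIF3J, the loosely attached subunit, at 13.6 FPKM and 31.6 FPKM (log2 ratio -1.21). Under scaling to the same sum these last 3 turned to 0.04, 0.43 and 0.66. The shares over the 6909 genes at 1 FPKM or more in each library were 11.5% higher and 44% lower by at least 2-fold.

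Each module of eIF3 held genes on both sides of 0. Subunits a, b, g and i had a median log2 ratio of -0.52, subunits c, d, e, k and l had 0.72, and subunits f, h and m had 0.61. EIF3E and EIF3L sit in the same module, and EIF3L stood at 1.14 times EIF3E with the IMP1 antibody and 0.0932 times with IgG. EIF3F and EIF3H form a pair with MPN folds, and their ratio was 0.911 and 0.122.

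The other eIF3 subunits lay within 2-fold. EIF3M was at 66.5 FPKM and 43.5 FPKM, EIF3K at 53.3 FPKM and 32.4 FPKM, EIF3D at 15.7 FPKM and 9.14 FPKM, and EIF3I at 33.4 FPKM and 24.3 FPKM, with log2 ratios from 0.46 to 0.77. EIF3G was at 22.4 FPKM and 41.8 FPKM (log2 ratio -0.90), EIF3A at 2.35 FPKM and 3.48 FPKM (log2 ratio -0.55) and EIF3B at 12.1 FPKM and 17.1 FPKM (log2 ratio -0.49). These 3 were below 0 as deposited, and all of them turned above 0 under scaling to the same sum, at 0.97, 1.28 and 1.37. EIF3C and EIF3CL are near-identical copies, so that the way reads were split between them is uncertain, and they had log2 ratios of 0.56 and 0.42.

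The eIF4F genes and their cofactors spanned 5.55 log2 units, from EIF4G3 to EIF4B. EIF4B, which stimulates the eIF4A helicase, was at 71.3 FPKM with the IMP1 antibody and 14.1 FPKM with IgG, a 5.05-fold difference (log2 ratio 2.33), and it moved from rank 2840 to rank 318. EIF4H, its smaller relative, was at 44.9 FPKM and 21.6 FPKM (log2 ratio 1.05). Both mRNAs were at least 2-fold higher with the IMP1 antibody, against 11.5% of the 6909 genes at 1 FPKM or more in each library. Each scaling adds to a log2 ratio, so none could turn either gene below 0.

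The scaffolds were lower, as were 4822 of the 6909 genes at 1 FPKM or more in each library. EIF4G1 was at 22.1 FPKM with the IMP1 antibody and 59.7 FPKM with IgG (log2 ratio -1.43, or 0.44 under scaling to the same sum). EIF4G3 was at 1.05 FPKM and 10.6 FPKM (log2 ratio -3.22), below 0 under all scalings. EIF4G2, the relative that lacks the eIF4E site, was at 65.6 FPKM and 129 FPKM (log2 ratio -0.98, or 0.90 under scaling to the same sum).

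The helicases EIF4A1 and EIF4A2 encode close paralogues and lay on opposite sides of 0. EIF4A1 was at 99.2 FPKM with the IMP1 antibody and 72.1 FPKM with IgG (log2 ratio 0.46). EIF4A2 was at 67.2 FPKM and 286 FPKM (log2 ratio -2.09), and it was the second highest factor gene of the IgG library. EIF4A1 stood at 1.48 times EIF4A2 with the IMP1 antibody and 0.252 times with IgG, so the order of the paralogues differed between the libraries. EIF4A2 has the C and pyrimidine start and was among the lowest ratios of the set, below 0 under all scalings.

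The cap-binding proteins were moderate in level. EIF4E was at 15.2 FPKM with the IMP1 antibody and 21.8 FPKM with IgG (log2 ratio -0.52, above 0 under each scaling). EIF4E2 (4EHP) was at 7.12 FPKM and 3.73 FPKM (log2 ratio 0.91), and EIF4E3 was at 2.40 FPKM and 9.66 FPKM (log2 ratio -1.96, below 0 under all scalings). EIF4ENIF1, the transporter that carries eIF4E into the nucleus, was at 2.25 FPKM and 8.14 FPKM (log2 ratio -1.81, or 0.02 under scaling to the same sum). EIF4E1B, which oocytes use, was at 0.138 FPKM and listed at 0 with IgG.

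**Figure D3:**
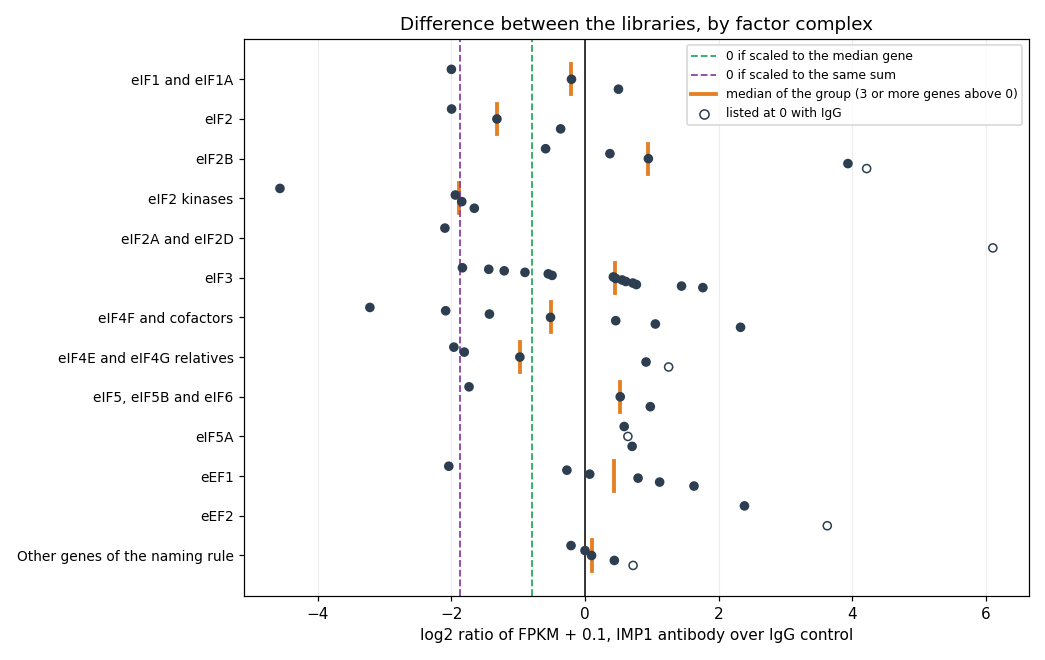
Log2 ratio of (FPKM + 0.1), IMP1 antibody over IgG control, for each factor gene by complex, with orange bars for group medians and open circles for genes listed at 0 with IgG, whose place is set by the added 0.1. The dashed lines show where 0 would lie after scaling to the median gene or to the same sum: the eIF2 kinases, at a median of -1.89, lie at or left of the second line except EIF2AK1 and EIF2AK4, and eEF1 spans from -2.04 to 1.63.

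Start codon selection, subunit joining and the late steps rest on single proteins. EIF1, which guards start codon choice, was at 208 FPKM with the IMP1 antibody and 239 FPKM with IgG (log2 ratio -0.20, above 0 under each scaling). EIF1AX was at 8.14 FPKM and 32.9 FPKM (log2 ratio -2.00), below 0 under all scalings. EIF1B, the paralogue of EIF1, was at 6.95 FPKM and 4.88 FPKM (log2 ratio 0.50).

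EIF5, the GTPase activator of eIF2, was at 27.6 FPKM and 92.3 FPKM (log2 ratio -1.74, or 0.14 under scaling to the same sum). EIF6, which keeps the large subunit apart, was at 38.8 FPKM and 26.9 FPKM (log2 ratio 0.53). EIF5B, the subunit joining GTPase, was under 1 FPKM in both libraries, at 0.462 FPKM and 0.186 FPKM, and its locus entry is shared with 8 other genes. EIF5A, the hypusine-bearing factor that helps ribosomes past difficult peptide bonds, was at 70.0 FPKM with the IMP1 antibody and 42.9 FPKM with IgG (log2 ratio 0.71), and EIF5A2 was at 1.49 FPKM and 0.959 FPKM.

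The last genes that the naming rule took are mostly low. EIF1AD, a nuclear protein with an eIF1A fold, was at 9.66 FPKM with the IMP1 antibody and 7.10 FPKM with IgG (log2 ratio 0.44). EIF4A3 was at 11.4 FPKM and 13.2 FPKM (log2 ratio -0.21, above 0 under each scaling), and EIF3J-AS1 was at 1.995 FPKM and 1.86 FPKM (log2 ratio 0.10). EIF2S3L and EIF5AL1, copies of EIF2S3 and EIF5A, were at 0.0647 FPKM and 0.0561 FPKM with the IMP1 antibody and listed at 0 with IgG, and EEF1E1-BLOC1S5 was close to 0 in both libraries. Of the 62 genes, 37 share their locus entry with another gene of the table, so their reads may not be fully separated.

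The balance between paralogues within each library does not depend on scaling. EEF1A1 stood at 31.1 times EEF1A2 with the IMP1 antibody and 11.9 times with IgG, a 2.62-fold change. EIF4A1 over EIF4A2 changed 5.85-fold and EIF4G1 over EIF4G3 changed 3.74-fold, from 5.64 times with IgG to 21.1 times with the IMP1 antibody. In each of these pairs the ratio leaned further to the first gene with the IMP1 antibody.

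Other pairs leaned the other way or held. EIF1 stood at 29.9 times EIF1B with the IMP1 antibody and 49.0 times with IgG, and EIF4E at 2.14 times and 5.84 times EIF4E2. EIF5A over EIF5A2 was 46.96 and 44.7, and EIF3C over EIF3CL was 2.17 and 1.99.

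**Figure D4:**
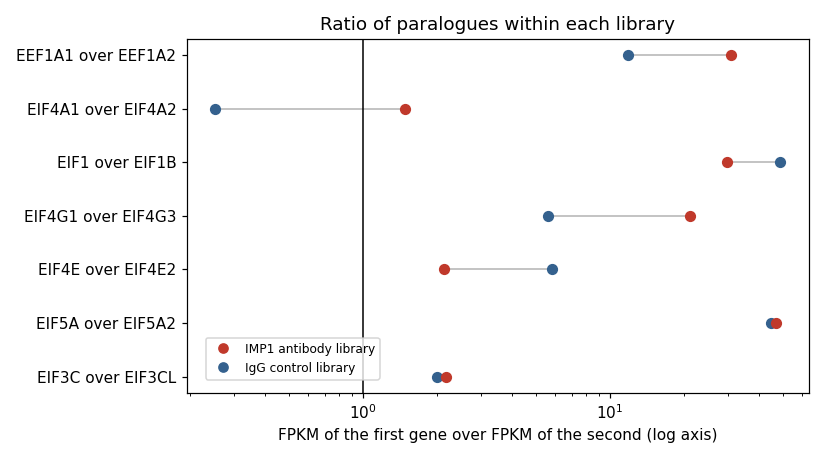
FPKM of the first gene over FPKM of the second within each library (log axis) for 7 pairs of paralogues, with 1 point per library and a line between them. EIF4A1 to EIF4A2 crosses 1, from 0.252 with IgG to 1.48 with the IMP1 antibody, and EIF5A to EIF5A2 hardly moves, from 44.7 to 46.96.

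The other TOP-type sets had lower medians than the elongation factors. Among mRNAs at 1 FPKM or more in each library, the 5 TOP-type elongation factors had a median log2 ratio of 1.12. The 4 initiation factors counted in a wider TOP list had ratios on both sides: 2.33 for EIF4B, 1.44 for EIF3F, -1.44 for EIF3H and -1.84 for EIF3E. The other 43 factor genes had a median of -0.49, with 2 at least 2-fold higher and 16 at least 2-fold lower. Over the 6909 genes at that level, the shares were 11.5% and 44%.

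The 77 cytosolic ribosomal protein genes, the largest TOP family, had a median of -0.02 with 8 at least 2-fold higher and 4 lower. Of the 6909 genes at 1 FPKM or more in each library, 11.5% were at least 2-fold higher and 44% lower. The 10 TOP mRNAs outside the factor and ribosomal protein genes had a median of -0.35, with none at least 2-fold higher and 4 lower. Among those 10, TPT1 (TCTP) was at 249 FPKM with the IMP1 antibody and 739 FPKM with IgG (log2 ratio -1.57), and PABPC1, the poly(A)-binding protein, was at 399 FPKM and 476 FPKM (log2 ratio -0.25). TPT1 turned above 0 only where 1.88 was added, and PABPC1 under each scaling.

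The aminoacyl-tRNA synthetase genes, which supply elongation with charged tRNA and are not of the TOP class, had a median of -2.04 over 19 genes. Of these, 1 was at least 2-fold higher and 13 at least 2-fold lower, against 11.5% and 44% of the 6909 genes. The synthetase median lies below that of the 6909 genes, while the median of the TOP-type elongation factors lies above it, under any scaling. The difference between the sets was not tested.

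Genes that regulate these factors, or act beside them as release factors do, were described from a list of 36, of which 35 were measured. Their median log2 ratio was -0.44, with 6 at least 2-fold higher against 39.9% of all genes, and 15 at least 2-fold lower against 29.9%. At 1 FPKM or more in each library, where 29 of the 35 lay, the shares over all genes were 11.5% and 44%. EIF4EBP1, the main inhibitor of eIF4E, was at 29.6 FPKM with the IMP1 antibody and 40.03 FPKM with IgG (log2 ratio -0.44, above 0 under each scaling), so that EIF4E stood at 0.515 times EIF4EBP1 with the IMP1 antibody and 0.545 times with IgG. The inhibitor EIF4EBP3 was at 0.0523 FPKM and 5.16 FPKM (log2 ratio -5.11), below 0 under all scalings.

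The kinases that phosphorylate eIF4E differed: MKNK1 was at 1.66 FPKM and 17.1 FPKM (log2 ratio -3.29), and MKNK2 was at 8.96 FPKM and 3.98 FPKM (log2 ratio 1.15). PDCD4, which sequesters eIF4A, was at 27.01 FPKM and 87.9 FPKM (log2 ratio -1.70, above 0 only where 1.88 was added). LARP1, which binds TOP starts, was at 16.7 FPKM and 9.84 FPKM (log2 ratio 0.76), and MTOR was at 1.80 FPKM and 2.06 FPKM.

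Downstream of the eIF2 kinases, ATF4 was at 33.9 FPKM with the IMP1 antibody and 83.1 FPKM with IgG (log2 ratio -1.29, above 0 under both sum scalings), and DDIT3 (CHOP) was at 3.64 FPKM and 97.2 FPKM (log2 ratio -4.70, below 0 under all scalings). PAIP1 and PAIP2, an activator and an inhibitor of the poly(A)-binding protein, were at 13.0 FPKM and 16.6 FPKM with the IMP1 antibody and at 81.6 FPKM and 68.7 FPKM with IgG (log2 ratios -2.64 and -2.04, below 0 under all scalings). Among the helpers of initiation, DENR and MCTS1, which act as a pair in reinitiation, had ratios of -1.98 and -1.36, the helicase DDX3X had -1.91 and CYFIP1, which binds eIF4E, had 1.34, and of these MCTS1 turned above 0 under the sum scalings. Both release factors, ETF1 and GSPT1, had ratios of -1.13 and -1.18, and both turned above 0 under the sum scalings. The median of the whole list, -0.44 over genes of any level, lay 0.34 above the median of the 6909 genes at 1 FPKM or more in each library. It lay below the median of all 18781 genes, 0.40.

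The sets can also be read by the annotated start alone. The 13 factor genes with a C and pyrimidine start had a median of 0.72, with 5 at least 2-fold higher and 3 lower, and the 39 matched genes without it had a median of 0.10. Over all 12182 matched genes the order was the opposite, with a median of 0.013 for the 855 genes with the start and 0.26 for the rest. Of those 855 genes, 289 were at least 2-fold higher and 268 lower. Among the 13 factor genes, EIF2S3L and EIF2D were listed at 0 with IgG, and EIF2D is 1 of the 5 higher. At 1 FPKM or more in each library, 11 factor genes with the start had a median of 0.72, and over all matched genes at that level the 481 with the start had -0.62 and the rest had -0.80. Ribosomal protein genes had medians of -0.054 with the start and 0.22 without it.

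**Figure D5:**
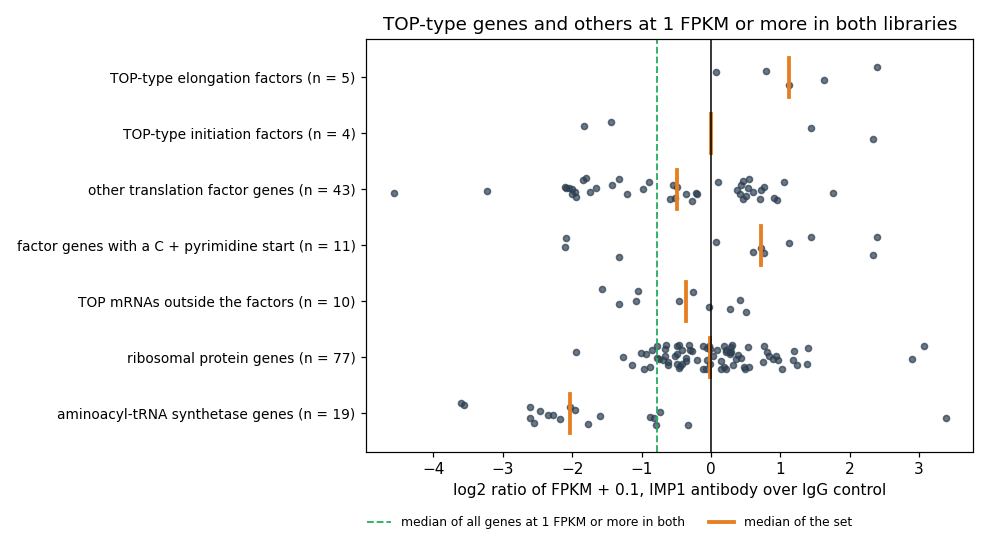
Log2 ratio of (FPKM + 0.1), IMP1 antibody over IgG control, for genes at 1 FPKM or more in each library, by set, with orange bars for medians and a dashed line at the median of all such genes, -0.78. The TOP-type elongation factors (median 1.12) lie right of that line, the ribosomal protein genes center near 0 (median -0.02), and the aminoacyl-tRNA synthetase genes (median -2.04) lie mostly left of it, and scaling shifts all sets alike.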

How the data were processed

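RNA coprecipitated from T47D cells with an IMP1 antibody or with IgG was sequenced (1 library each). For each gene the authors deposited FPKM in both libraries, with the build hg19 per the labels; the aligner, the quantifier and the annotation are not given in the sources used here. Zeros, written as 1e-05, were set to 0. The depth of the libraries is unknown, since FPKM keeps no counts, so no counting interval is given. The deposited table also holds the authors' fold changes, p-values and q-values, and 3 lists made with them; none was used.

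Log2 ratios were computed as log2 of (IMP1 FPKM + 0.1)/(IgG FPKM + 0.1), and genes past 2-fold were counted. The ratio understates the change of low genes. Locus starts count from 0, so 1 was added. With 1 library per condition no test was possible, no sample could be left out, and lists are described by counts and medians beside all genes. The members and lists were chosen with earlier results of these data known. Named genes were the TOP-type elongation factors, the 5 largest and 5 smallest ratios at 1 FPKM or more in both libraries, the 5 highest genes of each library, genes listed at 0 in 1 library and at 1 FPKM or more in the other, both genes of each paralogue pair, subunits of described complexes, and pathway genes past 2-fold or acting on a described gene. Alternatives were a pseudocount of 1 or 0.01 FPKM, a minimum of 1 FPKM in both libraries, 3 scalings, a 4-fold threshold, a narrower gene set and a wider TOP list. Group medians were taken where 3 or more genes were above 0 in both libraries. Starts came from RefSeq promoters matched through gene names. Scripts used Python 3.11.15, numpy 2.4.6, pandas 2.3.3 and matplotlib 3.10.9 and were tested on simulated data.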

Additional observations from a re-analysis of the deposited data

Results flagged for a closer look

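EEF1A1P6, a pseudogene copy of EEF1A1 that the naming rule left out, was at 37.7 FPKM with the IMP1 antibody and 14.1 FPKM with IgG (log2 ratio 1.41). It is listed because it is a signal in genes that the comparisons did not use and lies above its level in the IgG control library. It has 1 library per condition and was not tested.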

How the results depend on the processing

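The 2 pseudocounts, the narrower gene set and the wider TOP list left every count and median within 1.5-fold or its log2 equivalent of the value reported. Single-gene ratios moved past that limit for 8 genes with a pseudocount of 1 FPKM and for 7 with 0.01 FPKM. Among the 8, EIF4G3 went from -3.22 to -2.50. Requiring 1 FPKM in both libraries left 7 genes at least 2-fold higher. It gave a median of -0.60 for eIF5, eIF5B and eIF6 and of 0.37 for eIF2B. A 4-fold threshold left 6 genes higher and 6 lower.

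Scaling changed the most, by its construction. With the median gene at 1, 30 genes were higher and 12 lower, and the medians were 0.92 for all factor genes, 1.91 for TOP-type, 0.59 for the others, 0.59 for eIF1 and eIF1A, -0.53 for eIF2, 1.74 for eIF2B, -1.12 for the eIF2 kinases, 1.23 for eIF3, 0.27 for eIF4F, -0.18 for the eIF4E and eIF4G relatives, 1.32 for eIF5, eIF5B and eIF6 and 1.23 for eEF1. With equal sums, 41 genes were higher and 2 lower, and these medians were 1.84, 2.99, 1.66, 1.67, 0.55, 2.82, -0.052, 2.31, 1.35, 0.90, 2.40 and 2.31. With equal sums without mitochondrially encoded genes, 38 were higher and 2 lower, and they were 1.54, 2.63, 1.31, 1.31, 0.19, 2.45, -0.41, 1.95, 0.99, 0.54, 2.04 and 1.94.

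Among genes at least 2-fold lower as deposited, the sign turned with equal sums for EIF2AK1 (0.21), EIF5 (0.14), EIF3J (0.66), EIF3E (0.038), EIF4G1 (0.44), EIF2S3 (0.55), EIF3H (0.43) and EIF4ENIF1 (0.022), and without mitochondrially encoded genes for EIF3J (0.30), EIF4G1 (0.078), EIF2S3 (0.19) and EIF3H (0.069). EIF1, EIF2S1, EIF2B1, EIF3A, EIF3B, EIF3G, EIF4E, EIF4G2, EEF1A2 and EIF4A3, which lay below 0 by less than 2-fold, turned above 0 under both. Among called genes, the higher share was 57.2% of all genes and 40% of factor genes as deposited, 69.9% and 71.4% with the median gene at 1, 83.1% and 95.3% with equal sums, and 79.7% and 95.0% with equal sums without mitochondrially encoded genes.

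No paired analysis was possible because each condition had 1 library, and for the same reason no replicate was left out. Depth is unknown, so a value listed at 0 sets no limit on the level.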

Other observations

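Copies of the factor genes whose names end in P and digits were read separately. Without the EIF4EBP genes and 1 copy on chromosome Y, the 40 such genes summed to 133 FPKM with the IMP1 antibody and 106 FPKM with IgG, and the 19 copies of EEF1A1 made up 129 FPKM and 103 FPKM of that. EEF1A1P5 was at 82.6 FPKM and 83.2 FPKM, so that EEF1A1 stood at 11.1 times this copy with the IMP1 antibody and 5.08 times with IgG. These copies are near-identical to EEF1A1 in sequence, and how the reads were split between them is uncertain.

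The factors that serve mitochondria and selenoproteins were on the list of pathway genes too. GFM1 and GFM2, elongation factors of mitochondria, had log2 ratios of -2.47 and -1.73, while TSFM and TUFM had 1.49 and 0.91. EEFSEC, which delivers selenocysteine, was at 0.516 FPKM with the IMP1 antibody and 4.80 FPKM with IgG. GFM1 and EEFSEC remained below 0 with equal sums, and GFM2 turned above 0.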
